A study of Mus musculus with 6 samples.

Results

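The vomeronasal receptor gene clusters described here are 6 stretches of the mouse genome, 10.3 Mb in all, in which the heterochromatin mark H3K9me3 was measured in Lmnb1+/- and Lmnb1-/- olfactory cells. Members are the H3K9me3 islands, stretches of enriched signal called in each library, whose midpoint lies in a window. There were 143 such island calls among the 12565 of the 4 libraries, 1.14% of all. The V1r windows lie on chromosome 6 (56.8 to 58.2 Mb and 89.3 to 91.0 Mb) and chromosome 13 (21.8 to 23.8 Mb). The V2r windows lie on chromosome 3 (63.8 to 64.9 Mb), chromosome 5 (108.5 to 110.2 Mb) and chromosome 17 (18 to 20.4 Mb). All island positions are in the mm9 build. The limits were taken as given and were not checked against an mm9 gene annotation, so an island is placed in a window here and not on a gene.

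Vomeronasal receptors are G protein-coupled receptors of the vomeronasal organ, a sensory organ separate from the main olfactory epithelium. V1r receptors and V2r receptors are made by different layers of vomeronasal neurons, and V2r receptors differ by a long extracellular domain encoded by several exons. Like odorant receptor genes, they lie in tandem arrays, and a sensory neuron uses very few of them. H3K9me3 marks constitutive heterochromatin and is known to cover odorant receptor arrays in olfactory neurons, whereas H3K4me3 marks active promoters.

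There were 2 control mice and 2 mutant mice, all of mixed background, with 1 library each. By the study's scheme the mice carried a floxed Lmnb1 allele, as Lmnb1fl/+ in controls and Lmnb1fl/fl in mutants. Cre deletes it only in the cells of its lineage, so the epithelium was mosaic. Lmnb1+/- and Lmnb1-/- therefore name the sorted cells and not the whole mice. Values below are given in the order control 1, control 2, then mutant 1, mutant 2. Both genotypes carried a Cre transgene driven by the cytokeratin 5 promoter (K5Cre) and the Cre-dependent Tomato reporter R26Ai9. By the study's methods, both received 2 injections of 50 mg per kg methimazole, which strips the epithelium. Cells were taken after 4 weeks of regeneration. About 500000 Tomato-positive cells were sorted per mouse. K5Cre acts in the basal stem cells, so the sort held stem cells, progenitors, neurons and supporting cells, and a minority of sorted mutant cells still had lamin B1. Control 1 with mutant 1, and control 2 with mutant 2, are littermates of 1 treatment group each. Since the libraries are chromatin and their coordinates are mm9, the tissue was not checked against marker genes.

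RefSeq gene names of the GRCm38 assembly, whose positions were not combined with the islands, give the makeup of the arrays. Of 233 protein-coding V1r genes in that table, 52 are on chromosome 6 and 36 on chromosome 13. Of 124 V2r genes, 7 are on chromosome 3, 11 on chromosome 5 and 32 on chromosome 17. Chromosome 7, which holds 127 V1r and 52 V2r genes, has no window here. The run of 80 neighbouring genes from Vmn2r90 to Vmn2r117 on chromosome 17 is mixed, with 30 V2r genes, 14 V1r genes, 7 formyl peptide receptor genes (Fpr) and 21 zinc finger genes (Zfp). Among the nearest 10 genes on either side of the V1r run of chromosome 13 were 13 histone genes. These runs were set by gene order, and their limits were not matched to the windows, so they do not give the genes of a window.

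Promoters of both receptor families held few CG dinucleotides. In the RefSeq window of 300 bases, 250 before and 50 after the start of the gene, the median was 1 CG in 208 V1r promoters and 1 in 118 V2r promoter windows, beside 1 in 948 odorant receptor windows and 7 in all 32851 windows. CG was absent from 21.2% of V1r, 28.8% of V2r and 5.43% of all windows, and at least 7 CG were found in 0 V1r promoters, 1 V2r window and 52.1% of all windows. CG reads the same on both strands. The 3 promoters below, 1 with the median number of each family and the promoter of the histone gene next to the V1r run of chromosome 13, are shown to let these compositions be compared. Capitals mark each CG.
Vmn1r4 promoter, chr6:56956263-56956562 (GRCm38.p6, + strand): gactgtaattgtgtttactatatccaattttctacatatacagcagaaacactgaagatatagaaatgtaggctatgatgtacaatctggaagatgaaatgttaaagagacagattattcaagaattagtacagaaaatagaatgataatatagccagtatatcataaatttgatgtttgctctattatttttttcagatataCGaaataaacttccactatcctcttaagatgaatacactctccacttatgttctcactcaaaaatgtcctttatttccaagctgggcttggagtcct
Vmn2r90 promoter, chr17:17703691-17703990 (GRCm38.p6, + strand): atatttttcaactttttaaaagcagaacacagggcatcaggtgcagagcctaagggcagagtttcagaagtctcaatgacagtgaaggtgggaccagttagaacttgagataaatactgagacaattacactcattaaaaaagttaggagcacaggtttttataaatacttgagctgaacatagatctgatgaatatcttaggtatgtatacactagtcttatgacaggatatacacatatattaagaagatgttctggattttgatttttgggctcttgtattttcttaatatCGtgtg
H4c8 promoter, chr13:23530794-23531093 (GRCm38.p6, + strand): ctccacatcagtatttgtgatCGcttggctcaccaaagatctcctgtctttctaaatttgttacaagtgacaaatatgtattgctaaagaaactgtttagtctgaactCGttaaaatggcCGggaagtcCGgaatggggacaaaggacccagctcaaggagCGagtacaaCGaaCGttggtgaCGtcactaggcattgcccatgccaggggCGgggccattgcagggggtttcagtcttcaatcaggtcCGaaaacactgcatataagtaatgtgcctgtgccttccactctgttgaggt
The V1r and V2r promoters each hold 1 CG and the H4c8 promoter, of a histone H4 gene, holds 10. Their positions are GRCm38 positions and cannot be set against the mm9 islands, and island sequences are not shown because the genome at hand is of another build.

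The libraries differed in depth and in what was called. Reads per window of 200 bp, worked out from the scores, averaged 1.41 and 2.54 in the controls and 1.43 and 2.18 in the mutants. Control 2 had 5658 islands and the other libraries 1964 to 2905, and its smallest score was 64.7 against 78.8 to 86.1. A SICER score sums, over the windows of an island, how improbable the read number is given the average of the library, so it grows with depth, enrichment and length. Scores and coverage were not normalised between libraries by the authors, and every difference between libraries below carries these differences in depth, whose part in it was not tested.

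H3K9me3 islands in the 6 windows lay mostly in the V2r windows. Below, a V1r or V2r island or region is one in a window of that name, not one placed on a gene of that family. Of the 143 calls, 122 (85.3%) were in the V2r windows, which span 5.2 Mb, and 21 in the V1r windows, which span 5.1 Mb. The V2r windows had 21 and 65 islands in the controls and 24 and 12 in the mutants. The V1r windows had 3 and 13, and 3 and 2. Each library thus had more islands in the V2r windows, and control 2 had the most in both families.

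The V2r window on chromosome 17 carried most of the mark, with 100 of the 143 calls. Islands covered 6.025% and 16.2% of it in the controls, and 8.92% and 3.27% in the mutants. Control 2 was the highest and mutant 2 the lowest, so each genotype had values on both sides of a value of the other. Islands lay in 20 of its 24 bins of 100 kb in at least 1 library, and in 4 bins in all 4. Of the calls, 78 lay nearer to the end of the window than to its start.

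Within the chromosome 17 window the mark was patchy. The 4 bins with islands in every library began 1.3, 1.5, 1.7 and 2.3 Mb from its start. The bin at 1.3 Mb was covered to 21.8% and 34.4% in the controls, and 20.6% and 11% in the mutants. In the last bin, at 2.3 Mb, coverage was 9.2% and 60.8% in the controls, and 40.6% and 28.6% in the mutants, so both mutants lay between the controls. From 0.4 to 0.7 Mb each bin had islands in both controls and in mutant 1, at 7.4% to 18.2%, and none in mutant 2. Between 2.0 and 2.2 Mb, control 1 reached 33.2% and 9.4%, control 2 28.6% and 26.8%, and mutant 1 13.6% and 8.8%, again with none in mutant 2.

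In the V2r window on chromosome 5, coverage was 2.98% and 2.80% in the controls and 1.75% and 1.72% in the mutants, so the groups did not overlap in this measure. All 19 of its island calls lay nearer to its end than to its start, and the first 1.16 Mb of 1.7 Mb held no island in any library. The V2r window on chromosome 3 had 1 island each in control 1, control 2 and mutant 1, which covered 0.727%, 0.618% and 0.60% of it, and none in mutant 2. These 3 islands lay in 1 place, 0.06 Mb from the start of the window.

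V1r windows carried few islands. On chromosome 13, coverage was 0.45% and 1.07% in the controls (1 and 6 islands), and 0.88% and 0.41% in the mutants (2 and 1 islands). The window on chromosome 6 at 56.8 to 58.2 Mb was at 0% and 1.34% in the controls, and at 0.229% and 0.371% in the mutants. The other, at 89.3 to 91.0 Mb, was at 0.494% and 1.00% in the controls and had no island in either mutant. Control 2 thus had the highest coverage in each V1r window, and no V1r window had islands in all 4 libraries except that on chromosome 13, where no 100 kb bin was shared by all.

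**Figure D1:**
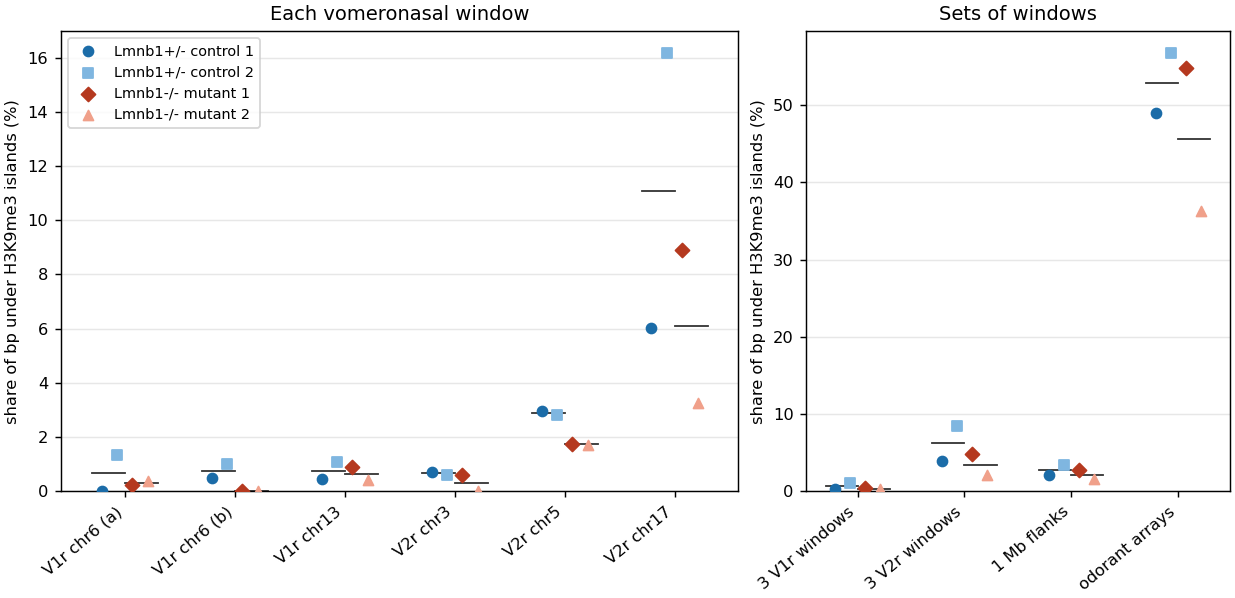
Share of base pairs under H3K9me3 islands (%, linear axes from 0) in each window on the left, where (a) is the chromosome 6 window at 56.8 to 58.2 Mb and (b) that at 89.3 to 91.0 Mb, and in sets of windows on the right; points are single libraries and lines are means of 2 mice. The chromosome 17 V2r window runs from 3.27% to 16.2%, every other window stays at or below 2.98%, and the odorant receptor arrays lie between 36.3% and 56.8%.

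The V1r and V2r windows were compared within each library, so that both sides share 1 depth. Coverage of the V1r windows together was 0.341% and 1.12% in the controls, and 0.408% and 0.263% in the mutants. For the V2r windows it was 3.91% and 8.51%, and 4.82% and 2.07%. V2r exceeded V1r in 4 of 4 libraries, by 4.29 ± 2.33 percentage points (SD, n = 4). A two-sided exact sign-flip test gave p = 0.125, as low as 4 libraries can reach. Without the chromosome 17 window the excess was 1.06 ± 0.463 points, still in 4 of 4 libraries (p = 0.125, exact sign-flip test). The chromosome 3 window alone was above the V1r windows in 2 of 4 libraries (mean difference -0.047 points, SD 0.408, p = 0.875, exact sign-flip test). The V2r excess was thus made by chromosomes 17 and 5.

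The windows were next set against 1 Mb of flank on each side. Over all 6, coverage of the flanks was 2.06% and 3.385% in the controls, and 2.71% and 1.565% in the mutants, against 2.14% and 4.85%, and 2.63% and 1.17%, in the windows. The difference, 0.271 ± 0.820 points (SD, n = 4), was positive in both controls and negative in both mutants and was within the spread of the libraries (p = 0.75, exact sign-flip test). Between genotypes, the window minus flank difference was -1.01 points, mutant minus control (p = 0.333, exact permutation test, the smallest p for 2 against 2), with littermate pairs at -0.159 and -1.86 points. It kept its sign in each setting run and was -0.157 with stricter islands (only those scoring at least the pooled median of 108.3), -0.297 with equal numbers of islands (the strongest 1964 in every library), -0.292 without the chromosome 17 window and -0.316 without control 2. The mean window minus flank difference over libraries (0.271 points) turned negative under several settings, given in the closing section.

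The 2 families stood on opposite sides of their flanks, though not in every window. V2r windows exceeded their flanks in 4 of 4 libraries, by 2.34 ± 1.78 points, whereas V1r windows lay below theirs in 4 of 4, with a window minus flank difference of -1.84 ± 0.404 points (p = 0.125 for each, exact sign-flip test). The V1r value came from chromosome 13, where the window minus flank difference was -5.68 ± 1.20 points. The Mb before that window, which holds no member, had coverage of 11.8%, 15.4%, 14.9% and 8.96%, and the Mb after it held no island. Both chromosome 6 windows lay above their flanks in 2 of 4 libraries, with mean differences of 0.053 and 0.061 points. The V2r value came mostly from chromosome 17, where the mean difference was 3.41 points, against 0.082 on chromosome 5 and 0.456 on chromosome 3.

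On chromosome 17 the window was above the mean of its flanks in 4 of 4 libraries, by 3.41 ± 2.91 points (p = 0.125, exact sign-flip test). Its coverage continued past its end, where the following Mb had coverage of 4.28% and 10.9% in the controls, and 5.98% and 2.18% in the mutants. On chromosome 5 the following Mb was covered to 4.02%, 4.42%, 5.12% and 4.04%, above the window in all 4 libraries, and the preceding Mb to 0.24% in control 2 and 0% in the other libraries. The chromosome 5 window was above the mean of its flanks in both controls and below it in both mutants (mean 0.082, SD 0.790 points, p = 0.875, exact sign-flip test). The chromosome 3 window had islands where its flanks had almost none, with 1 island of control 2 in 2 Mb.

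**Figure D2:**
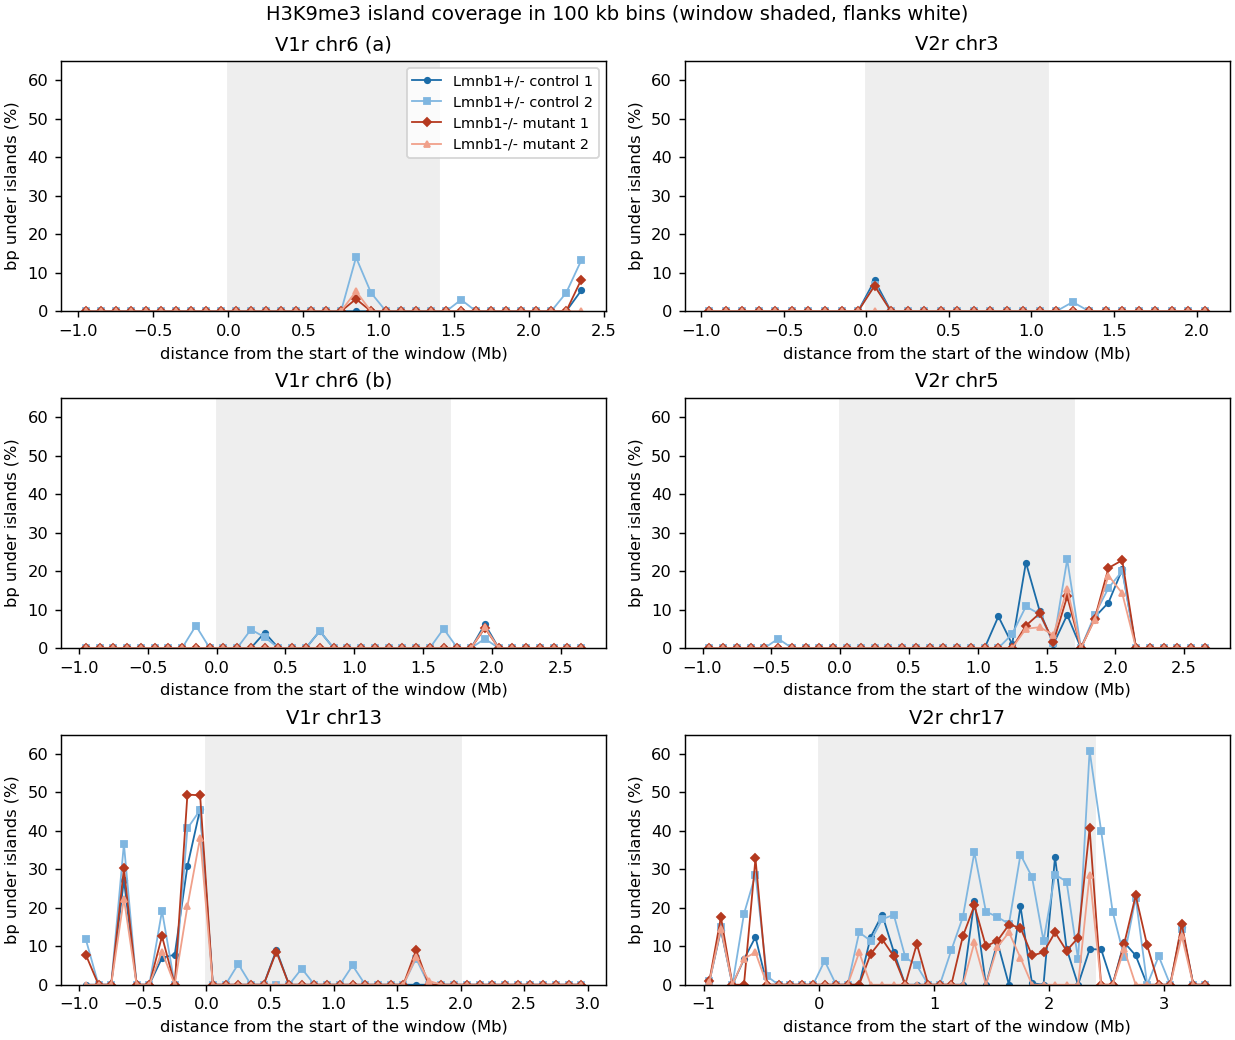
H3K9me3 island coverage (% of base pairs) in bins of 100 kb against the distance from the start of each window (Mb), with windows shaded, flanks white and 1 line per library; (a) and (b) are the chromosome 6 windows at 56.8 to 58.2 Mb and 89.3 to 91.0 Mb. Chromosome 17 islands spread over most of the window with a highest bin of 60.8% in control 2, chromosome 5 islands sit in its last part, and the 2 bins just before the chromosome 13 window, at 20.4% to 49.4%, exceed all bins in it.

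Set against the whole genome, many bins exceeded the V1r windows and few exceeded the V2r windows. Among 2644 bins of 1 Mb, the median coverage was 0.36% in control 2 and 0% in the other libraries, with means of 0.806% and 1.49% in the controls, and 1.13% and 0.687% in the mutants. Bins above the V1r coverage of the same library made up 24.3%, 22.4%, 32.0% and 27.8% of all bins in the 4 libraries. For the V2r windows they made up 3.67%, 3.63%, 5.07% and 6.51%, and for the chromosome 17 window 2.50%, 1.32%, 2.87% and 4.27%. Windows and bins differ in length, so these ranks are a description.

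The windows stood far below odorant receptor arrays. The arrays taken for comparison, at 38 to 40 Mb of chromosome 9 and 86 to 90 Mb of chromosome 2, had coverage of 49.0% and 56.75% in the controls, and 54.8% and 36.3% in the mutants. They exceeded the 6 windows by 46.5 ± 7.97 points and the chromosome 17 window by 40.6 ± 5.50 points, each in 4 of 4 libraries (SD, n = 4, exact sign-flip test, p = 0.125 for each).

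Member islands were also weak ones. Of 143, 97 (67.8%) scored below the median island of their own library, 19 of 21 in the V1r windows and 78 of 122 in the V2r windows, against 196 of 922 (21.3%) in the odorant receptor arrays. V1r islands scored 65.1 to 115.0 with a median of 86.5 and were 2.2 to 9 kb long (median 4.8 kb). V2r islands scored 64.9 to 425.9 with a median of 93.8 and were 3.4 to 20.6 kb long (median 7.8 kb). Pooled ranges mix libraries whose smallest scores differ.

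Score per covered kb sets the score against length, though an island near the smallest score has a higher score per kb the shorter it is. In the chromosome 17 window it was 11.2 and 14.2 in the controls, and 11.7 and 10.5 in the mutants. In the odorant receptor arrays it was 18.5 and 26.3, and 22.3 and 16.9. The arrays were higher in 4 of 4 libraries, by 0.81 ± 0.12 on the log2 scale (SD, n = 4, exact sign-flip test, p = 0.125). The scores correspond to read densities of 2.18, 2.06, 2.24 and 1.74 times the library average in chromosome 17 islands and 3.13, 3.01, 3.51 and 2.45 times in array islands, as worked out from SICER's formula and not from counted reads. In each library the chromosome 17 window was thus less covered than the arrays, and its islands were less dense.

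V1r islands, which were shorter (median 4.8 against 7.8 kb), had a higher score per kb than V2r islands, by 0.28 ± 0.12 on the log2 scale in 4 of 4 libraries (p = 0.125, exact sign-flip test). The values were 15.8, 18.6, 14.3 and 15.1 in the V1r windows and 11.6, 15.4, 12.5 and 12.9 in the V2r windows. This order rested on chromosome 17, since without it V2r islands were the denser in 3 of 4 libraries and the V1r over V2r difference was -0.17 ± 0.33 on the log2 scale. In the chromosome 5 window the values were 12.96, 24.2, 18.04 and 19.4.

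**Figure D3:**
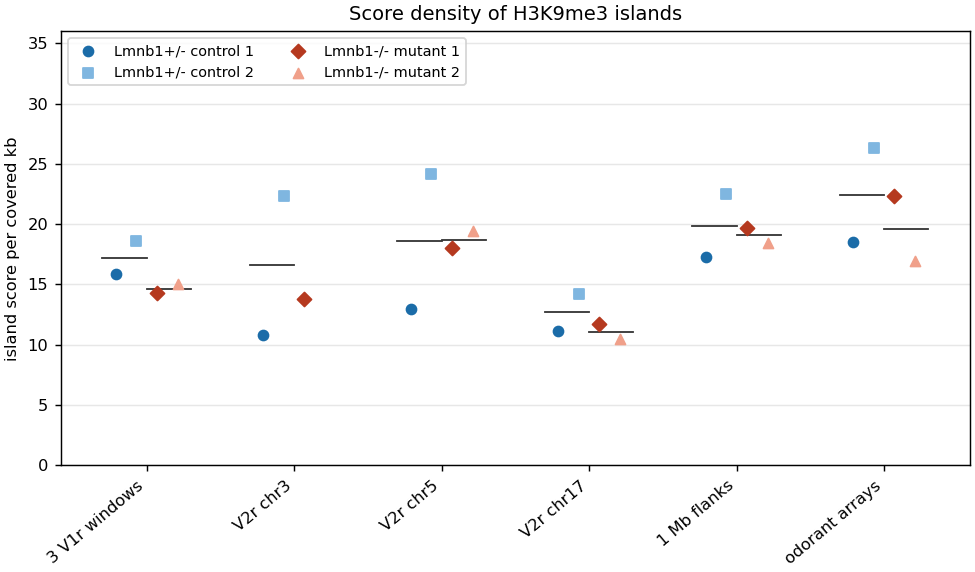
H3K9me3 island score per covered kb (linear axis from 0) for the V1r windows, each V2r window, the 1 Mb flanks and the odorant receptor arrays; points are libraries and lines are means of 2 mice, and mutant 2 has no island on chromosome 3. The chromosome 17 values, 10.5 to 14.2, lie below those of the arrays, 16.9 to 26.3, in every library.

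Islands that overlapped between libraries were joined to regions, which gave 83 regions in the windows, 15 V1r and 68 V2r, 58 of the latter on chromosome 17. Regions called in all 4 libraries were few, 3 of 83 (3.61%), all V2r, against 17.3% of the 5840 regions of the genome and 57.8% of those in the odorant receptor arrays. Of the rest, 46 were called in 1 library, 23 in 2 and 11 in 3. Control 2 alone called 38 of the 83 (45.8%), against 42.2% in the genome, a share near that background. On chromosome 17, 8 regions were called in 3 libraries, and the library without an island was mutant 2 in 6 of them, control 1 in 1 and mutant 1 in 1. Mutant 2 also had the fewest islands in the genome. By island calls rather than regions, 67.8% of the member calls and 75.8% of all calls fell in regions called by at least 2 libraries.

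The 3 regions found in every library all lay in V2r windows. The region at chromosome 5, 110096601 to 110113400 (16.8 kb), had the highest lowest score and scored 172 and 426 in the controls, and 265 and 259 in the mutants. Both mutants lay between the 2 controls there. The region at chromosome 5, 109902001 to 109914000 (12 kb), scored 156, 259, 172 and 123 in the same order, with mutant 2 the lowest. The region at chromosome 17, 20320201 to 20352400 (32.2 kb), held 8 islands whose summed scores were 107, 411, 217 and 116, with control 1 the lowest and control 2 the highest. These regions lie near the ends of their windows, 0.087, 0.286 and 0.048 Mb from the limit. Whether they belong with the islands past those limits was not tested.

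In the other 4 windows no region was found in every library, and the region with the most libraries was taken. At chromosome 6, 57664801 to 57672000, scores were 0 (no island) and 115 in the controls, and 89.7 and 98.7 in the mutants. At chromosome 3, 63856001 to 63866400, they were 86.8 and 152 in the controls, and 90.8 and 0 in the mutants. At chromosome 13, 22343401 to 22352400, only the first pair had islands, with 96.5 in control 1 and 93.5 in mutant 1. At chromosome 6, 89646801 to 89650800, only the controls did, with 79.3 and 114. No V1r island of any library scored above 115.0.

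**Figure D4:**
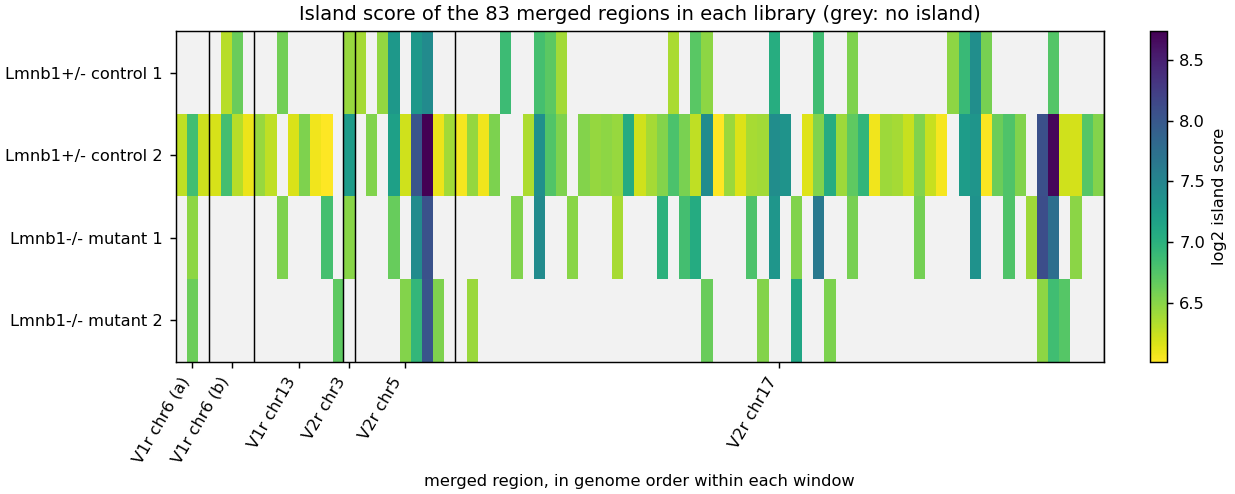
Log2 island score (colour) of each of the 83 merged regions (columns, in genome order within each window) in each library (rows), with grey for no island; (a) and (b) are the chromosome 6 windows at 56.8 to 58.2 Mb and 89.3 to 91.0 Mb. Control 2 fills most columns, only 3 columns are filled in all 4 rows, and the darkest of these lie in the chromosome 5 window and near the end of the chromosome 17 window.

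The study's comparison of Lmnb1-/- with Lmnb1+/- cells asked whether lamin B1, a protein of the nuclear lamina, affects where this heterochromatin mark lies. Over the 6 windows coverage was 3.50 ± 1.92% in the controls and 1.90 ± 1.03% in the mutants (SD, n = 2 each). The difference, -1.59 points, was smaller than the spread between the controls (p = 0.667, exact permutation test, two-sided), and with 2 against 2 libraries no p can go below 0.333. The littermate pairs went opposite ways, with mutant minus control at 0.491 points in pair 1 and -3.68 points in pair 2. Without control 2 the difference was -0.238 points, without control 1 -2.95, with stricter islands -0.291, and with equal numbers of islands -0.305.

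By family, V2r coverage was 6.21 ± 3.25% in the controls and 3.44 ± 1.94% in the mutants, a difference of -2.77 points, with pairs at 0.908 and -6.44 points. This was -0.465 points without control 2, -5.07 without control 1, -0.567 with stricter islands and -0.690 with equal numbers of islands. V1r coverage was 0.731 ± 0.552% and 0.335 ± 0.103%, a difference of -0.396 points, with pairs at 0.067 and -0.859 points (p = 0.667 for each family, exact permutation test). The V1r minus V2r difference itself was 2.37 points higher in the mutants than in the controls (p = 0.667, exact permutation test), so neither family was shown to differ from the other in its response. On chromosome 17 the pairs stood at 2.89 and -12.9 points.

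In 3 of the 6 windows both mutants were below both controls and in 0 both were above. Among the 1631 bins of 1 Mb with an island in any library, 9.32% had both mutants below both controls, but the windows are 1.1 to 2.4 Mb long, so the shares are not like for like. The 3 windows were those on chromosome 5 (-1.15 points, pairs -1.22 and -1.08), chromosome 3 (-0.373 points) and chromosome 6 at 89.3 to 91.0 Mb (-0.747 points), each with p = 0.333, the smallest the exact permutation test allows. On chromosome 3 and chromosome 6 this rests on 3 and 6 islands. As a share of all base pairs under islands in the library, the windows held 1.04% and 1.27% in the controls against 0.909% and 0.665% in the mutants, a difference of -0.55 on the log2 scale (p = 0.333, exact permutation test). The chromosome 5 window alone held a share of 0.237% and 0.121% in the controls, and 0.0998% and 0.161% in the mutants. In share the groups thus overlapped there, as on chromosome 3, but not on chromosome 6 at 89.3 to 91.0 Mb, which had no mutant island. Score per kb over the 6 windows was 11.9 and 15.8 in the controls and 12.6 and 13.2 in the mutants. It was also divided by the score per kb of the rest of the genome in the same library. On the log2 scale this ratio was -0.843 and -0.687 in the controls, and -0.833 and -0.820 in the mutants. Its mutant minus control difference was -0.06 (p = 1, exact permutation test).

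Single regions were tested with limma on log2(score + 64.7), the smallest score of any library, over the 2801 regions of the genome called in at least 2 libraries. Of the 83 member regions 37 entered, and 0 passed an adjusted p of 0.05, against 1 of 2801 (0.0357%) in the genome. At an unadjusted p under 0.05, 4 of 37 (10.8%) were lower in mutants against 3.93% in the genome, and 1 (2.70%) was higher against 1.89%. All 4 were called in both controls only and the 1 in both mutants only, so each passed the filter through the group where it is high, and these counts support nothing about the members. The median log2 fold change was 0.03 over the 37 member regions and 0.08 over all 2801, with 18 below 0 and 19 above. A region without an island enters at the floor of the scale, whatever its signal below the cut-off was. The size of its fold change therefore depends on that floor and may be too large or too small.

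The largest change in the same direction in both pairs was at chromosome 17, 19636201 to 19649800, with no island in either control and scores of 92.8 in mutant 1 and 140 in mutant 2 (log2 fold change 1.66, SE 0.51, limma adjusted p = 0.814). It was the only member region called in both mutants and neither control, 1 of 83 (1.20%), against 0.565% in the genome. It entered the test only through the mutants, where it is high, so its fold change and p are a description. Regions called in both controls and neither mutant numbered 7 of 83 (8.43%), 5 of them V2r, against 3.2% in the genome. Member regions were called in all 4 libraries less often (3.61% against 17.3%), so these shares are not like for like. One of the 7, at chromosome 6, 89646801 to 89650800, had a log2 fold change of -1.12 (SE 0.45, limma adjusted p = 0.832) and entered the test only through the controls. At chromosome 5, 109824801 to 109838600, scores of 156 and 146 in the controls stood against 100 in mutant 1 and 0 in mutant 2 (-0.88, SE 0.50, limma adjusted p = 0.918). None of these passed the threshold.

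H3K4me3, measured in control 1 and mutant 1 only, had more peaks in the V1r than in the V2r windows, as values of 1 library per genotype with no test. The V1r windows held 58 peaks in control 1 and 71 in mutant 1, 11.4 and 13.9 per Mb, and the V2r windows 14 and 21, 2.69 and 4.04 per Mb, against 5.85 and 6.72 per Mb in the genome. Most V1r peaks, 39 and 49, lay in the chromosome 13 window. The chromosome 17 window, which carried most H3K9me3, had 1 peak in each library, and the chromosome 5 window had 13 and 17. The families overlapped between windows, with the chromosome 6 windows at 5 and 4.29 and at 7.06 and 9.41 per Mb, the chromosome 5 window at 7.65 and 10 per Mb and the chromosome 3 window at 0 and 2.73 per Mb. The odorant receptor arrays had 2 and 7 peaks in 6 Mb.

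None of the 72 H3K4me3 peaks of control 1 in the windows and none of the 92 of mutant 1 overlapped an H3K9me3 island of the same mouse. A count of 0 allows a share of up to 4.17% and 3.26%, which is above the shares in the genome, 0.776% and 1.06%, so the windows could not be told from the genome at these numbers. Which genes the peaks belong to was not analysed here.

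**Figure D5:**
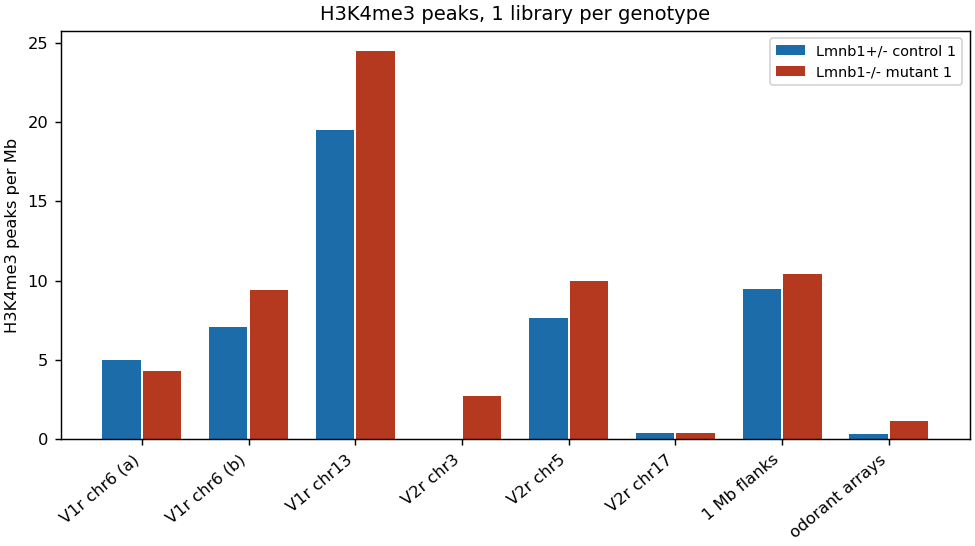
H3K4me3 peaks per Mb (linear axis from 0) in each window, the 1 Mb flanks and the odorant receptor arrays, with 1 bar per library; (a) and (b) are the chromosome 6 windows at 56.8 to 58.2 Mb and 89.3 to 91.0 Mb. The chromosome 13 window is the highest, at 19.5 and 24.5 per Mb, and the chromosome 17 window is at 0.417 per Mb in both libraries.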

How the data were processed

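H3K9me3 was measured in 4 libraries and H3K4me3 in 2. The authors mapped reads to mm9 with bowtie (unique alignments, at most 2 mismatches), called H3K9me3 islands in each library with SICER (windows of 200 bp, gaps of 600 bp, E-value 0.01) and H3K4me3 peaks with MACS (p of 1e-05). Tool versions are not given in the sources used here. The deposited values are island scores, a score of each peak, and positions. Read counts were not used here.

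Members and lists were chosen with earlier results of these data known. An island belongs to a window by its midpoint. Computed per library were islands, the percent of base pairs covered and score per covered kb. Groups were compared by exact permutation (2 against 2, two-sided) and windows within libraries by exact sign flips. Regions, joined where islands overlap, were tested with limma 3.58.1 in R 4.3.3 on log2(score + 64.7) after each library was moved to 1 shared median, with Benjamini-Hochberg adjustment. The average reads per window, the only depth these files give, came from islands of 2 windows, whose scores fit whole reads in all of 5, 10, 11 and 10 islands.

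Libraries of the same number are littermates of the same treatment group, by the labels and the study's methods, and the fit with the pair as a block is an alternative (correlation of their deviations -0.017). P-values measure the spread between single mice, with a limit for limma. There a library without an island enters at the floor, which partly sets the spread, SE and p of such a region. Named regions are, per window, that with the highest lowest-of-4 score (where every region had a 0, that called in most libraries, then of highest summed score, a tie rule set after seeing the data), and of the tested regions that changed alike in both pairs the one of largest change. The other region called in all 4 libraries was named after its values were seen. Coverage, the joining of islands, the exact tests, the worked-out reads per window and limma were tested on simulated data, and the other steps were not. At a simulated log2 change of 2, larger than that of any member region in the main fit, limma recovered 81 of 200 changed regions. The absence of member regions past the threshold thus does not show that none changed. Other steps ran in Python 3.11.15 (scipy 1.17.1, numpy 2.4.6, pandas 2.3.3), with figures by matplotlib 3.10.9. RefSeq gene names and promoters (GRCm38.p6) were matched by symbol.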

Additional observations from a re-analysis of the deposited data

Results flagged for a closer look

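The littermate pairs moved opposite ways in coverage, mutant minus control. Over the 6 windows the difference was 0.491 percentage points in pair 1 and -3.68 in pair 2. In the V1r windows it was 0.067 and -0.859, and in the V2r windows 0.908 and -6.44. With 1 mouse of each genotype per pair, the difference between pairs was not tested. Both libraries of pair 2 were the deeper of their genotype, at 2.54 reads per window in control 2 and 2.18 in mutant 2. Those of pair 1 had 1.41 in control 1 and 1.43 in mutant 1. Control 2 had the most islands in the genome (5658) and mutant 2 the fewest (1964). The part of depth in the difference between pairs was not tested.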

How the results depend on the processing

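Of 220 values under another setting (33 from settings chosen after seeing the data), 203 kept their direction and their side of the threshold, 14 changed direction, 2 passed the threshold anew and 1 count moved by over 1.5 times. Many of the 203 were fixed in advance, so this count does not measure robustness. No exact test here can go below 0.125, so none can change its side. With the pair as a block the differences equal the main ones, except for the share. V1r coverage does not use the chromosome 17 and 5 windows. The V2r excess over V1r, the distance to the odorant receptor arrays and the lower mutant values of coverage over all windows, over V2r windows and as a share kept their direction under each setting run, none with a test that could pass, though the mutant minus control values moved by over 1.5 times. Over the 6 windows they were -2.95 to -0.238 points leaving out 1 library, -0.291 with stricter islands, -0.305 with equal numbers of islands and -0.556 without the chromosome 17 window, and in the V2r windows -5.07 to -0.465, -0.567, -0.690 and -0.846 points in the same settings. Coverage of windows minus flanks (0.271 points) was -0.723 with stricter islands (score at least 108.3), -0.518 with equal numbers of islands (1964), -0.426 with limits moved inwards by 0.1 Mb, -0.433 with flanks of 0.5 Mb and, chosen after seeing the data, -0.969 without the chromosome 17 window, and leaving out 1 library gave -0.127 (without control 2) to 0.491. V1r coverage, mutant minus control, was 0.088 points with equal numbers of islands, and -0.786 to -0.006 leaving out 1 library. Score per kb relative to the rest of the genome, mutant over control, was 0.047 on the log2 scale without the chromosome 17 window. Leaving out 1 library gave -0.14 to 0.016 for it, the highest without control 2. V1r over V2r score per kb was -0.17 without the chromosome 17 window. Member regions past the limma threshold numbered 7 with a pseudocount of 1, where 199 of 2801 regions passed, and 0 in each other setting, at unadjusted p between 0 and 10 regions. With that pseudocount the named regions were 7.09 (chromosome 17, 19636201) and -6.34 (chromosome 6, 89646801) on the log2 scale, which for regions with islands in 1 genotype reflects the floor of the scale. Without the shift between libraries the median of all regions moved from 0.08 to -0.11, the chromosome 13 region to -0.014 and the chromosome 5 region at 110096601 to -0.060. Leaving out a library gave -0.78 (without control 2) to 0.59 for the former and -0.19 (without control 1) to 0.36 for the latter. With the pair as a block, the replicate block gave 0 member regions past the threshold and a share difference of -0.56 on the log2 scale, and it changed no call. The part of depth was not tested.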
